A study of Schizosaccharomyces pombe with 12 samples.

Results

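The 10 genes described here are fission yeast genes of the G1/S transition that work with the transcription factor MBF. They were matched by systematic ID from a list drawn up with earlier results of these data known, and all 10 were among the 5483 features of the table. They are cdc22 (SPAC1F7.05), cdc18 (SPBC14C8.07c), cig2 (SPAPB2B4.03), mik1 (SPBC660.14), cdt1 (SPBC428.18), suc22 (SPBC25D12.04), nrm1 (SPBC16A3.07c), yox1 (SPBC21B10.13c), res1 (SPBC725.16) and res2 (SPAC22F3.09c). The gene table of assembly ASM294v3 gives the same symbols for these IDs. The study measured total RNA of Schizosaccharomyces pombe on 12 Affymetrix tiling arrays, 3 biological replicates for each of 4 strains, from cultures at an OD600 of 0.5. The strains were wild type (SPB80), dcr1Δ (SPB81), dcr1ΔC33 (SPB287) and dcr1-SHSS (SPB776), and the labels give no other allele or agent for any of them. The dcr1 gene encodes Dicer, the ribonuclease of RNA interference. Each allele was represented by 1 strain number, so a difference belongs to that strain and cannot be told apart from other differences between the strains. The comparisons asked how each dcr1 allele changed the level of these genes against wild type, and whether the alleles differed from each other.

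MBF is a DNA-binding complex of Cdc10 with the related proteins Res1 and Res2, and it switches on a set of genes as cells pass from G1 into S phase. Nrm1 and Yox1 are corepressors that bind MBF and close this window, and both are themselves products of MBF-regulated genes. The other genes of the set act downstream. They encode the S-phase cyclin Cig2, the kinase Mik1 that holds back Cdc2, the replication licensing factors Cdc18 and Cdt1, and the subunits Cdc22 and Suc22 of ribonucleotide reductase, which makes the building blocks of DNA. In an unsynchronised culture, a smaller share of cells in G1/S and less RNA per cell in that phase cannot be told apart.

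The arrays were alike in scale, with medians from 11.37 to 11.42 on the log2 scale. The deleted gene dcr1 lay at 5.37 to 5.80 on the dcr1Δ arrays and at 10.49 to 10.60 on the wild-type arrays, as the labels say. It lay at 10.85 to 10.89 in dcr1ΔC33 and at 10.64 to 10.70 in dcr1-SHSS. Of 7 marker genes of meiotic and sporulating cells, isp3 and spo6 rose in dcr1Δ by the test described below, and 5 did not pass. In dcr1ΔC33 isp3 rose, mde2 fell and 5 did not pass. In dcr1-SHSS isp3 rose, mde2 and spo6 fell and 4 did not pass. These counts are to be read beside the shares of all features given below. The falls of mde2 in dcr1ΔC33 and of spo6 in dcr1-SHSS were each lost without certain single arrays (adjusted p up to 0.0678 and 0.0948). The log2 of the summed level of the 7 markers ranged from 11.52 to 11.77 in wild type and from 11.99 to 12.14 in dcr1Δ. It ranged from 11.90 to 11.96 in dcr1ΔC33 and from 11.69 to 11.89 in dcr1-SHSS. The part of these markers in the results below was not tested.

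Differences were tested with limma on the log2 levels of all features, with p-values adjusted over all 5483 by the Benjamini-Hochberg method and a threshold of 0.05. Changes are given on the log2 scale with their SE. The main pattern was a fall in dcr1ΔC33 and dcr1-SHSS of some of the 10 genes, led by mik1, and a rise of 1 gene, cdt1, in dcr1Δ. Against wild type 1 of the 10 rose in dcr1Δ and none fell, where 2.81% of all features rose and 0.328% fell, 3.14% in all. In dcr1ΔC33 none rose and 4 fell (cig2, mik1, nrm1 and res1), where 14.7% of all features rose and 17.6% fell, 32.3% in all. In dcr1-SHSS none rose and 5 fell (the same 4 and suc22), where 15.0% rose and 25.8% fell, 40.7% in all. With 10 genes, 4 and 5 falls are to be read beside these shares. The median change of the 10 genes in dcr1Δ was 0.07, that in dcr1ΔC33 was -0.09 and that in dcr1-SHSS was -0.10, beside 0.00, -0.03 and -0.06 for all features. In the same order, the medians of the 10 genes after quantile normalization were 0.02, -0.08 and -0.09. The genes thus did not move as 1 block. Counted at limma's unadjusted p under 0.05, 3 were higher and 2 lower in dcr1Δ, beside 11.4% and 6.77% of all features. At the same p, 5 were lower and none higher in each of the other mutants. All features had 25.2% lower and 19.6% higher in dcr1ΔC33, and 32.3% lower and 17.6% higher in dcr1-SHSS. By arrays alone, 3 of the 10 genes had all dcr1Δ arrays above all wild-type arrays and 2 had all below, as had 11.6% and 9.45% of all features. For dcr1ΔC33 none was wholly above and 5 were wholly below, beside 20.6% and 28.8% of all features. For dcr1-SHSS these counts were none and 5, beside 17.8% and 32.6%. The comparisons with wild type share the wild-type arrays, so their calls are not independent of each other.

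**Figure D1:**
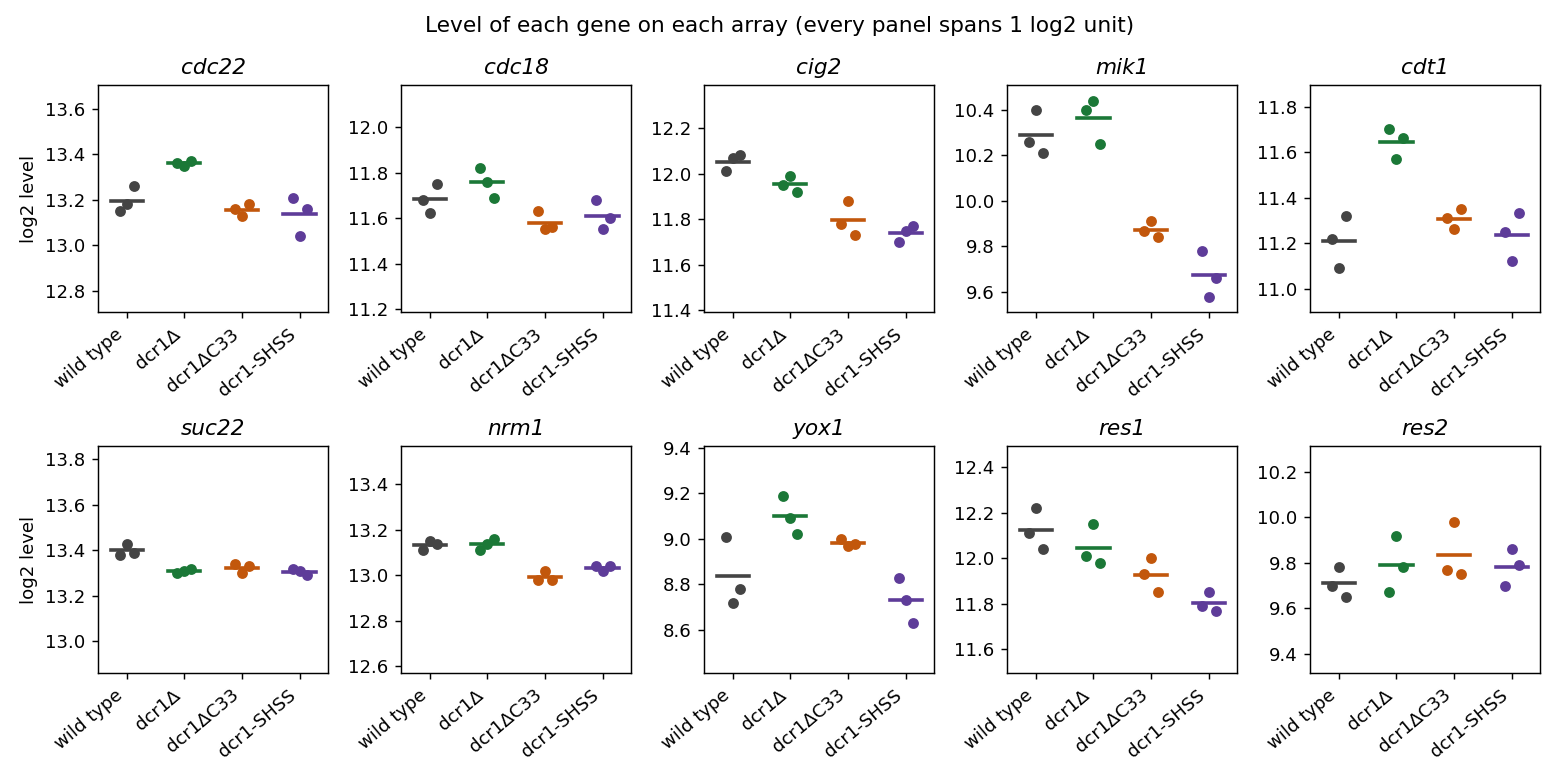
Log2 level of each of the 10 genes (1 panel each) on each array, by strain; points are arrays in the order of their replicate numbers and bars are strain means, and every panel spans 1 log2 unit. The dcr1ΔC33 and dcr1-SHSS arrays of mik1 lie below all wild-type and dcr1Δ arrays, and the dcr1Δ arrays of cdt1 lie above all others.

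The kinase gene mik1 had the widest range of strain means among the 10, 0.69. It lay at 10.26, 10.40 and 10.21 in wild type and at 10.40, 10.44 and 10.25 in dcr1Δ. It lay at 9.87, 9.91 and 9.84 in dcr1ΔC33 and at 9.78, 9.58 and 9.66 in dcr1-SHSS. All 6 arrays of the latter strains were below all 6 of the former, while wild type and dcr1Δ overlapped. The gene fell 1.53-fold in dcr1-SHSS (-0.62 ± 0.07 on the log2 scale, 3 arrays a strain, adjusted p = 0.000104) and 1.33-fold in dcr1ΔC33 (-0.42 ± 0.07, adjusted p = 0.00147). Only 20 of the other features had a lower change in dcr1-SHSS, and 55 in dcr1ΔC33. In dcr1Δ the difference was 0.07 ± 0.07 (95% interval -0.08 to 0.22, adjusted p = 0.61). Under the alternatives that were run, including leaving out each array, both falls passed, with adjusted p up to 0.00283 in dcr1-SHSS and 0.00808 in dcr1ΔC33.

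The cyclin gene cig2 encodes the main partner of Cdc2 at the start of S phase. It lay at 12.01, 12.07 and 12.08 in wild type, at 11.95, 11.99 and 11.92 in dcr1Δ, at 11.78, 11.88 and 11.73 in dcr1ΔC33 and at 11.70, 11.75 and 11.77 in dcr1-SHSS. The wild-type arrays were the highest and overlapped with no mutant, and the arrays of dcr1ΔC33 and dcr1-SHSS overlapped each other. The gene fell by 0.26 ± 0.04 in dcr1ΔC33 (adjusted p = 0.0019) and by 0.31 ± 0.04 in dcr1-SHSS (adjusted p = 0.000456), and both calls held under every alternative run. In dcr1Δ the difference was -0.10 ± 0.04 and did not pass (adjusted p = 0.264), although all 3 arrays lay below all 3 of wild type. Such a separation downwards was seen for 9.45% of all features in that comparison.

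Of the DNA-binding subunits, res1 fell and res2 did not pass in any comparison. Res1 is the partner of Cdc10 that matters most in the mitotic cycle, and Res2 has a larger part in meiosis. The level of res1 was 12.114, 12.222 and 12.041 in wild type, 12.01, 12.15 and 11.98 in dcr1Δ, 11.93, 12.00 and 11.85 in dcr1ΔC33 and 11.79, 11.85 and 11.77 in dcr1-SHSS. The arrays of dcr1ΔC33 and dcr1-SHSS all lay below those of wild type, and dcr1Δ overlapped wild type. The fall was 0.32 ± 0.06 in dcr1-SHSS (adjusted p = 0.00235, and up to 0.0102 over the alternatives). In dcr1ΔC33 it was 0.20 ± 0.06 (adjusted p = 0.0284). That call did not survive the loss of any of 4 single arrays, wild-type arrays 1 and 2 and dcr1ΔC33 arrays 1 and 3 (adjusted p up to 0.104), nor did it when only these 2 strains were fitted (0.0562). The strain means of res2 lay between 9.71 in wild type and 9.83 in dcr1ΔC33, with a pooled SD within strains of 0.10. Its differences from wild type were 0.08, 0.12 and 0.07 in dcr1Δ, dcr1ΔC33 and dcr1-SHSS, each ± 0.08. The 95% interval that reached highest was that of dcr1ΔC33, -0.05 to 0.30. Both res genes were highest on array 2 in all 4 strains.

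Of the corepressor genes, nrm1 fell in dcr1ΔC33 and dcr1-SHSS, and yox1 passed against wild type in no mutant. The arrays of nrm1 were close together, at 13.11, 13.15 and 13.14 in wild type, 13.11, 13.14 and 13.16 in dcr1Δ, 12.98, 13.02 and 12.98 in dcr1ΔC33 and 13.04, 13.02 and 13.04 in dcr1-SHSS. Wild type and dcr1Δ overlapped, and the other strains lay below both. The fall of 0.14 ± 0.03 in dcr1ΔC33 passed under every alternative run (adjusted p = 0.00688, up to 0.033). The fall of 0.10 ± 0.03 in dcr1-SHSS (adjusted p = 0.0253) was lost after median centring (0.126), when only these 2 strains were fitted (0.0884) and without any of 5 single arrays, wild-type array 2 or 3 or each dcr1-SHSS array (up to 0.066). The median of all features was itself -0.06 in that comparison.

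The signal of yox1 was dim, with a mean of 8.91, inside the lowest 20% of features that 1 alternative left out (mean level up to 9.46). It lay at 9.01, 8.72 and 8.78 in wild type, at 9.19, 9.09 and 9.02 in dcr1Δ, at 9.00, 8.97 and 8.98 in dcr1ΔC33 and at 8.83, 8.73 and 8.63 in dcr1-SHSS. The dcr1Δ arrays were above all others, and wild-type array 1 stood apart above the other wild-type arrays. The difference in dcr1Δ, 0.26 ± 0.08, did not pass (95% interval 0.09 to 0.44, adjusted p = 0.106). It passed with the replicate number as a block (adjusted p = 0.0288) and without wild-type array 1 (0.35, adjusted p = 0.0245). In dcr1ΔC33 the difference was 0.15 ± 0.08 (adjusted p = 0.166). It passed without wild-type array 1 (0.24, adjusted p = 0.026) and was -0.009 after quantile normalization. In dcr1-SHSS it was -0.11 ± 0.08 (adjusted p = 0.295).

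The products of the licensing genes cdt1 and cdc18 load the replicative helicase at origins. For cdt1 the levels were 11.22, 11.09 and 11.32 in wild type and 11.70, 11.57 and 11.66 in dcr1Δ. They were 11.31, 11.26 and 11.35 in dcr1ΔC33 and 11.25, 11.12 and 11.33 in dcr1-SHSS. The dcr1Δ arrays were higher than all others, and the remaining strains overlapped. The gene rose 1.35-fold in dcr1Δ (0.43 ± 0.07, adjusted p = 0.00646), and 154 of the other features had a higher change. The call held under every alternative run, with adjusted p up to 0.0487. In dcr1ΔC33 the difference was 0.10 ± 0.07 (95% interval -0.05 to 0.25) and in dcr1-SHSS 0.02 ± 0.07 (-0.13 to 0.18), neither past the threshold.

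No difference passed for cdc18 in any of the 6 comparisons. Its levels were 11.68, 11.62 and 11.75 in wild type, 11.82, 11.76 and 11.69 in dcr1Δ, 11.63, 11.55 and 11.56 in dcr1ΔC33 and 11.68, 11.55 and 11.60 in dcr1-SHSS. Each mutant overlapped wild type, while the dcr1Δ arrays lay above those of dcr1ΔC33 and dcr1-SHSS. The differences from wild type were 0.07 (95% interval -0.04 to 0.19), -0.11 (-0.22 to 0.01) and -0.07 (-0.19 to 0.04) in dcr1Δ, dcr1ΔC33 and dcr1-SHSS.

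Of the ribonucleotide reductase genes, cdc22 passed against wild type in no mutant and suc22 passed in dcr1-SHSS. The large subunit gene cdc22 lay at 13.15, 13.18 and 13.26 in wild type, 13.36, 13.35 and 13.37 in dcr1Δ, 13.16, 13.13 and 13.18 in dcr1ΔC33 and 13.21, 13.04 and 13.16 in dcr1-SHSS. The dcr1Δ arrays were above all others, and the rest overlapped. The difference of 0.16 ± 0.05 in dcr1Δ did not pass (95% interval 0.06 to 0.26, adjusted p = 0.103). In dcr1ΔC33 and dcr1-SHSS cdc22 differed from wild type by -0.04 ± 0.05 and -0.06 ± 0.05. The small subunit gene suc22 lay at 13.38, 13.43 and 13.39 in wild type and within 13.29 to 13.34 on all 9 mutant arrays, so each mutant lay below wild type. Its differences were -0.09, -0.08 and -0.09 (each ± 0.03) in dcr1Δ, dcr1ΔC33 and dcr1-SHSS, with adjusted p = 0.161, 0.0702 and 0.0306, so that suc22 fell in dcr1-SHSS by the threshold. That call was lost after median centring (0.142), when only these 2 strains were fitted (0.112) and without wild-type array 2 or 3 or dcr1-SHSS array 2 or 3 (up to 0.0898). In dcr1ΔC33 moderation with an intensity trend brought it past the threshold (0.0433).

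**Figure D2:**
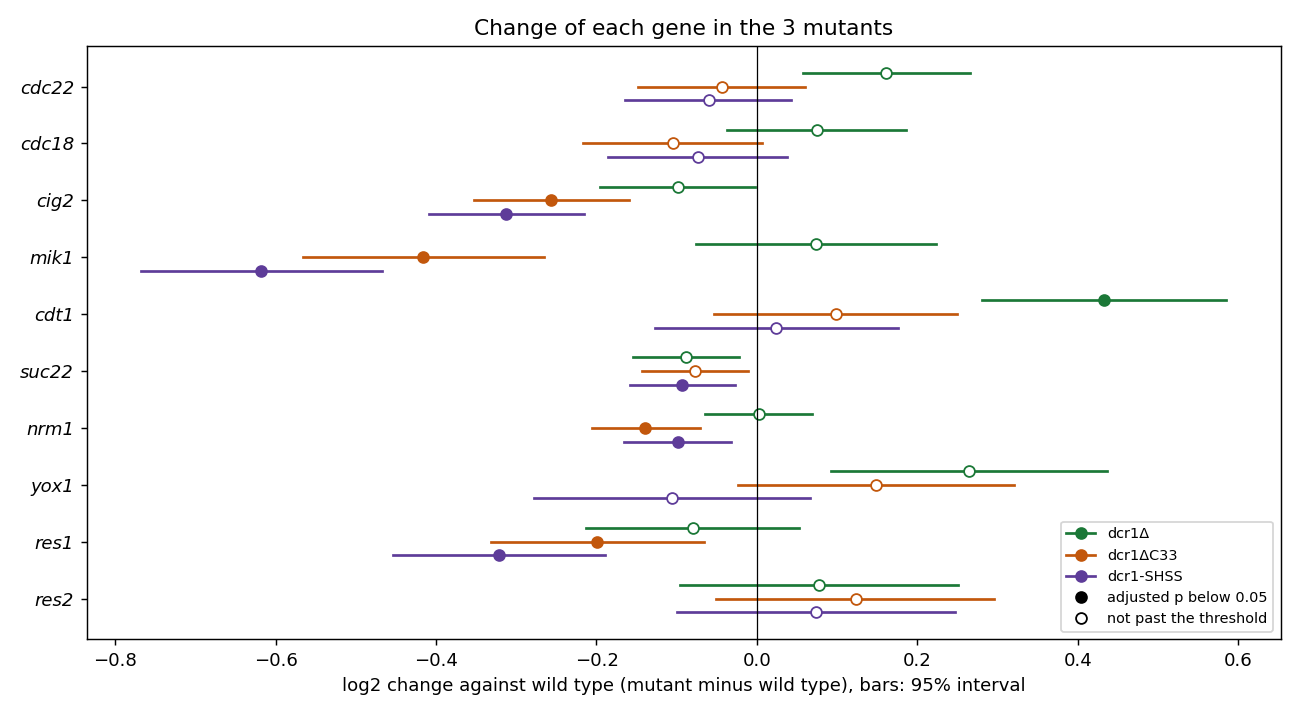
Log2 change of the 10 genes in dcr1Δ, dcr1ΔC33 and dcr1-SHSS against wild type, with 95% intervals from limma; filled points passed the threshold. The fall of mik1 in dcr1-SHSS (-0.62) and the rise of cdt1 in dcr1Δ (0.43) stand furthest from 0 on either side.

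The alleles were then compared with each other. The comparisons with dcr1Δ share its arrays, so their calls are not independent of each other. For cdt1 and cdc22 dcr1Δ was the highest strain, and neither dcr1ΔC33 nor dcr1-SHSS passed against wild type. Between dcr1ΔC33 and dcr1Δ, 4 of the 10 genes were lower in dcr1ΔC33 and none higher, where 3.28% of all features were lower and 4.61% higher, 7.90% in all. These were mik1 (-0.49 ± 0.07, adjusted p = 0.00256), cdt1 (-0.33 ± 0.07, adjusted p = 0.0183), cdc22 (-0.21 ± 0.05, adjusted p = 0.0263) and nrm1 (-0.14 ± 0.03, adjusted p = 0.0215). By arrays, 7 of the 10 lay wholly below dcr1Δ and none wholly above, beside 20.5% and 13.5% of all features. The call of mik1 held under every alternative run. That of cdc22 was lost on leaving out any 1 array of the pair (adjusted p up to 0.0838). For cdt1 it was lost without dcr1Δ array 1 or any dcr1ΔC33 array (up to 0.075). That of nrm1 was lost without any single array except dcr1ΔC33 array 2 (up to 0.0832), after median centring (0.0553) and when only these strains were fitted (0.0722). Deviations of same-numbered arrays correlated weakly between these strains (0.131 to 0.3). With the replicate number as a block 7 genes passed, cdc18 (adjusted p = 0.0288), cig2 (0.032) and res1 (0.0378) in addition. Both cdc18 and cig2 also passed after quantile normalization, without the dim features and with an intensity trend. In the fit of all strains without the block their adjusted p was 0.0536 and 0.0527. Of the lists described below, 2 of 9 mitosis genes were lower here (1 after median centring). So were 2 of 10 other MBF targets (1 after median centring, 1 after quantile normalization) and 1 of 12 origin licensing genes. None passed among the MBF partners or the Cdc2 control, checkpoint and ribonucleotide reductase control genes. The median was -0.12 for mitosis, -0.17 for the MBF partners and -0.15 for the 10 genes, beside -0.03 for all features.

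Between dcr1-SHSS and dcr1Δ, 7 of the 10 were lower in dcr1-SHSS and none higher, where 17.7% of all features were lower and 8.85% higher, 26.6% in all. The differences were -0.69 ± 0.07 for mik1, which was 1.62-fold lower (adjusted p = 0.000232), -0.41 ± 0.07 for cdt1 (0.00333), -0.37 ± 0.08 for yox1 (0.00867), -0.24 ± 0.06 for res1 (0.0166), -0.22 ± 0.05 for cdc22 (0.00881), -0.21 ± 0.04 for cig2 (0.00762) and -0.10 ± 0.03 for nrm1 (0.0341). For mik1, cdt1, yox1, cdc22 and cig2 the call held under every alternative that gave a value. It was lost for res1 without dcr1Δ array 2 or dcr1-SHSS array 3 (adjusted p up to 0.0562). For nrm1 it was lost without any single array of either strain (up to 0.0857), after median centring (0.189) and when only these strains were fitted (0.0997). With the block, cdc18 passed as well (-0.15, adjusted p = 0.0275). Of the lists described below, 3 of 3 MBF partners (2 after median centring) and 4 of 10 other MBF targets were also lower here. So were 6 of 12 origin licensing genes (2 after quantile normalization) and 5 of 9 mitosis genes. Of 9 checkpoint genes 3 were lower (1 after quantile normalization, 2 after median centring) and 1 higher. Of 8 Cdc2 control genes 1 was lower. None of 5 ribonucleotide reductase control genes passed. The median was -0.15 for mitosis, -0.28 for the MBF partners and -0.22 for the 10 genes, beside -0.05 for all features.

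Between dcr1-SHSS and dcr1ΔC33 none of the 10 genes passed, where 0.0547% of all features were higher and 0.0912% lower in dcr1-SHSS. The lowest differences were those of yox1, -0.25 ± 0.08 (95% interval -0.43 to -0.08, adjusted p = 0.173), and mik1, -0.20 ± 0.07 (-0.35 to -0.05, adjusted p = 0.201). By limma's unadjusted p these 2 of the 10 genes were under 0.05 (0.00799 and 0.013), both lower, as were 10.9% of all features, with 4.52% higher. For cdc18 the interval was -0.08 to 0.14 and for nrm1 -0.03 to 0.11. Over all 4 strains, dcr1-SHSS had the lowest mean for 6 of the 10 genes and dcr1Δ the highest for 6. Neighbours in the order of strain means differed past the threshold only for mik1 (dcr1ΔC33 below wild type), cdt1 (dcr1ΔC33 below dcr1Δ) and nrm1 (dcr1-SHSS below wild type).

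**Figure D3:**
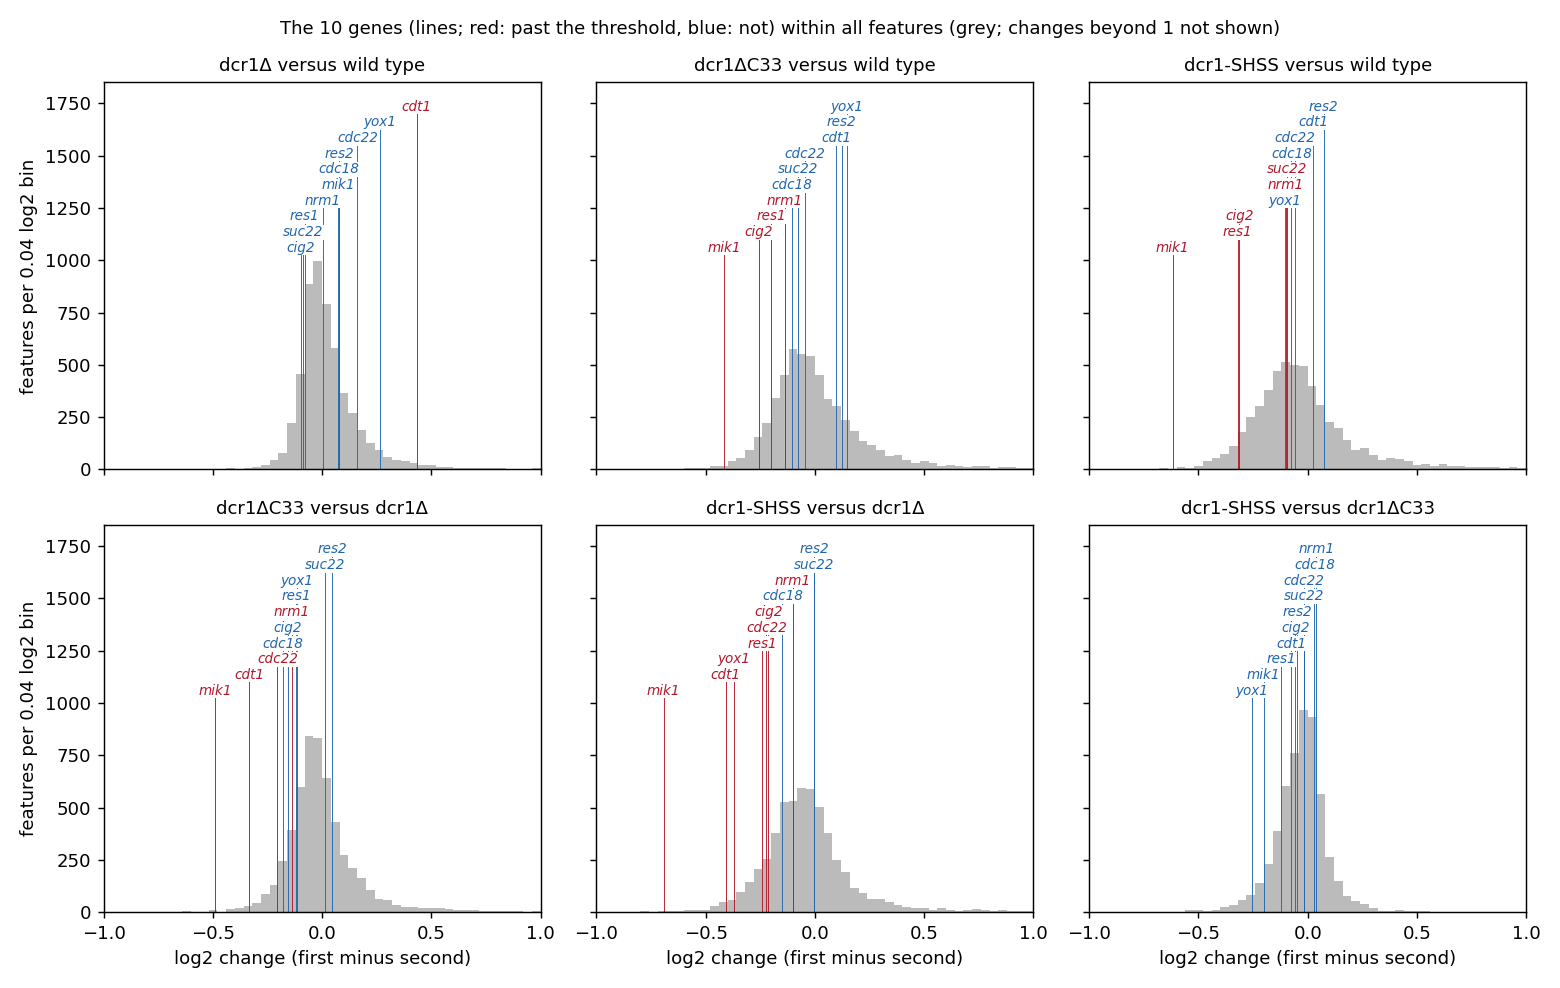
Number of features by log2 change (grey histogram, bins of 0.04, changes beyond 1 not shown) in each of the 6 comparisons, with the 10 genes as lines, red where past the threshold. The line of mik1 lies in the lower tail in the 4 comparisons of dcr1ΔC33 or dcr1-SHSS with wild type or dcr1Δ, and cdt1 lies in the upper tail in dcr1Δ.

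Because both strands were labelled, transcripts of a gene that overlaps on the opposite strand add to a signal. In the gene table, 8 of the 10 genes overlap other annotated features, and for 4 of them such a feature was measured. The mik1 gene overlaps ssb1, which encodes the large subunit of replication protein A and is itself on the list of MBF targets. ssb1 differed from wild type by 0.05, 0.06 and 0.06 in dcr1Δ, dcr1ΔC33 and dcr1-SHSS (each ± 0.07), and none passed. The cig2 gene overlaps pmc1, which rose by 0.43 ± 0.11 in dcr1-SHSS (adjusted p = 0.00933), opposite to cig2. In dcr1ΔC33 pmc1 differed by 0.29 ± 0.11 (adjusted p = 0.0583). It passed there under some alternatives, among them quantile normalization and the replicate block. The nrm1 gene overlaps tad1, which fell by 0.28 ± 0.07 in dcr1-SHSS (adjusted p = 0.0117) and differed by -0.21 ± 0.07 in dcr1ΔC33 (adjusted p = 0.0528). The res1 gene overlaps rrn11, with differences of -0.29 ± 0.14 and -0.28 ± 0.14 in dcr1ΔC33 and dcr1-SHSS that did not pass. The first passed after quantile normalization, and the second without dcr1-SHSS array 1. In wild type the mean level was 10.82 for ssb1 and 10.29 for mik1, and 12.74 for pmc1 and 12.05 for cig2. The mean was 9.33 for tad1 and 13.13 for nrm1, and 8.49 for rrn11 and 12.13 for res1. The part of these overlaps in the values of mik1, cig2, nrm1 and res1 was not tested. No annotated feature overlaps cdt1 or yox1.

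The wider network was described with lists of named genes, whose counts are to be read beside the shares of all features that fell, 17.6% in dcr1ΔC33 and 25.8% in dcr1-SHSS. Of the 3 partners of MBF, none passed in dcr1Δ by limma, also at an unadjusted p under 0.05, 1 fell in dcr1ΔC33 and all 3 fell in dcr1-SHSS. The shared subunit gene cdc10 fell by 0.14 ± 0.04 in dcr1ΔC33 (adjusted p = 0.02) and by 0.16 ± 0.04 in dcr1-SHSS (adjusted p = 0.00753). The first of these calls was lost on leaving out wild-type array 1 or dcr1ΔC33 array 3 and when only these 2 strains were fitted (adjusted p up to 0.0708). In dcr1-SHSS the coactivator gene rep2 fell by 0.20 ± 0.06 (adjusted p = 0.0178). Its call was lost on leaving out wild-type array 1 or dcr1-SHSS array 3 and when only these 2 strains were fitted (up to 0.0631). The gene of its meiotic counterpart, rep1, fell by 0.48 ± 0.11 in dcr1-SHSS (adjusted p = 0.00813). Its signal was dim, with a mean of 9.02, and the fit without the dimmest features gives no value for it.

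Of 10 other MBF targets none passed in dcr1Δ, where limma's unadjusted p was under 0.05 for 2, rad21 and cdt2. In dcr1ΔC33 tos4, mrc1 and eso1 fell and none rose, and in dcr1-SHSS the same 3 fell and cdt2 rose. The list's median was 0.01 in dcr1ΔC33 and -0.01 in dcr1-SHSS, and 0.00 in both after median centring. The gene tos4 fell by 0.25 ± 0.05 and 0.31 ± 0.05 in the respective strains (adjusted p = 0.00643 and 0.00168). The checkpoint mediator gene mrc1 fell by 0.23 ± 0.07 and 0.27 ± 0.07, and eso1, which encodes an enzyme of sister chromatid cohesion, by 0.14 ± 0.04 and 0.28 ± 0.04. In dcr1ΔC33 the calls of mrc1 and eso1 did not survive the loss of wild-type array 3 or of dcr1ΔC33 array 1 or 3 (adjusted p up to 0.0998 and 0.108), that of eso1 also without wild-type array 1 and when only these 2 strains were fitted. In dcr1-SHSS that of mrc1 was lost when only these 2 strains were fitted (0.0518). The rise of cdt2 was 0.22 ± 0.04 (adjusted p = 0.00289). It encodes a substrate receptor for protein breakdown in S phase, and it was named after its value was seen. The targets rad21, ctp1, ssb1, pol1, ams2 and psm3 did not pass against wild type in any mutant.

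**Figure D4:**
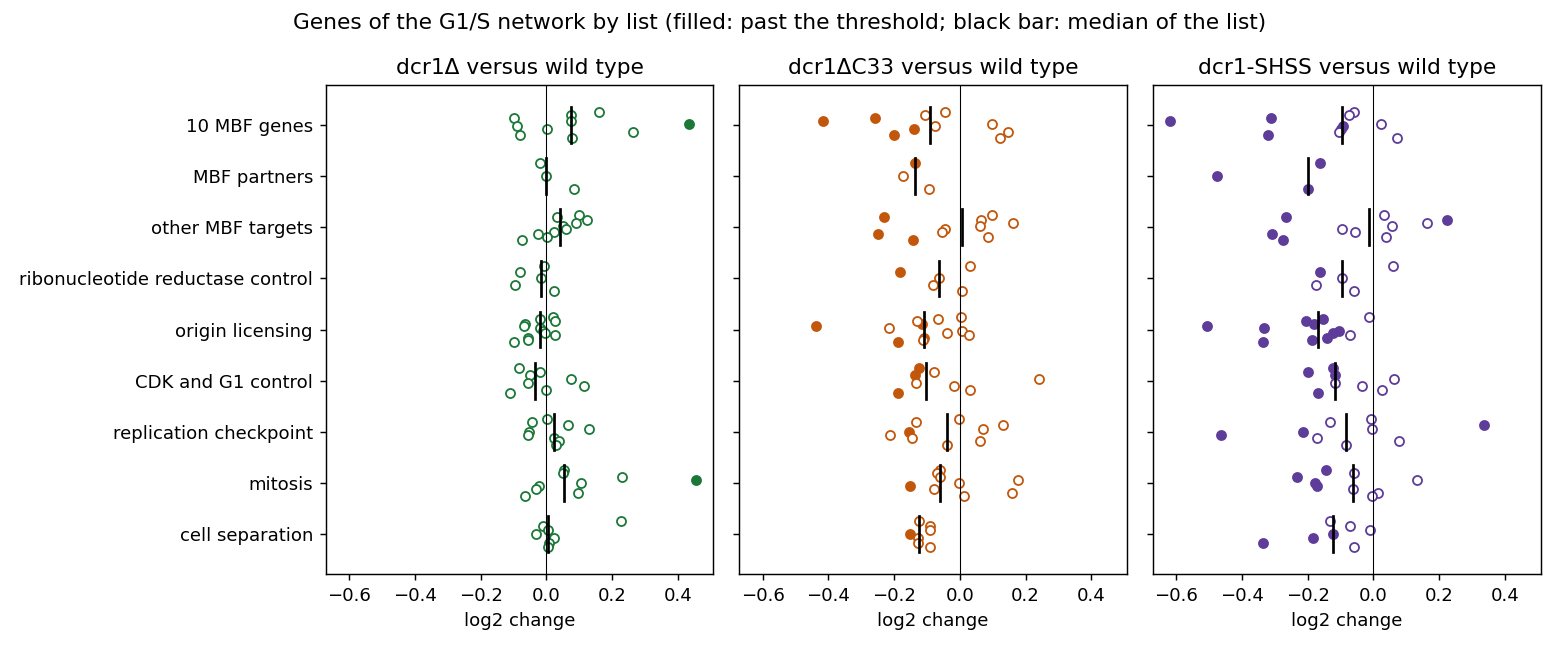
Log2 change against wild type of the 10 genes and of the genes of 8 other lists in each mutant; filled points passed the threshold and black bars are list medians. Origin licensing genes have a median of -0.17 in dcr1-SHSS, and the other MBF targets lie on both sides of 0.

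Of 12 origin licensing genes, which encode the origin recognition complex and the MCM helicase, none passed in dcr1Δ by limma, also at an unadjusted p under 0.05. In dcr1ΔC33 4 fell and in dcr1-SHSS 10 fell, with none higher, beside falls of 17.6% and 25.8% of all features. After quantile normalization 6 fell in dcr1ΔC33, and after median centring 8 fell in dcr1-SHSS. The gene orc5 fell by 0.44 ± 0.06 in dcr1ΔC33 (adjusted p = 0.000765) and by 0.50 ± 0.06 in dcr1-SHSS (adjusted p = 0.000244). The helicase gene mcm7, the left-hand neighbour of suc22, fell by 0.19 ± 0.06 and 0.33 ± 0.06. Its call in dcr1ΔC33 was lost on leaving out wild-type array 1 or 3 or any dcr1ΔC33 array (adjusted p up to 0.101). Of 5 genes that control ribonucleotide reductase, only ddb1 passed, falling by 0.18 ± 0.04 in dcr1ΔC33 and 0.16 ± 0.04 in dcr1-SHSS.

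Of 8 genes of the Cdc2 kinase and its control, 3 fell in dcr1ΔC33 and 4 in dcr1-SHSS, beside 17.6% and 25.8% of all features. None passed in dcr1Δ, where limma's unadjusted p was under 0.05 for 2. After median centring 2 of the 8 fell in dcr1-SHSS. The share of 25.8% is from the levels without that centring, and the share after it is not given here. The cyclin gene cig1 fell by 0.20 ± 0.03 in dcr1-SHSS (adjusted p = 0.00168). The phosphatase gene cdc25, whose product opposes Mik1, fell by 0.19 ± 0.05 in dcr1ΔC33 (adjusted p = 0.0167) and by 0.17 ± 0.05 in dcr1-SHSS (adjusted p = 0.0209). The first call was lost on leaving out wild-type array 2 or dcr1ΔC33 array 1 (up to 0.0594). The second was lost after median centring, when only these 2 strains were fitted and without wild-type array 2 or 3 or dcr1-SHSS array 1 (up to 0.0688). Of 9 replication checkpoint genes 1 fell in dcr1ΔC33, and in dcr1-SHSS 2 fell and 1 rose. The gene rad9 fell by 0.46 ± 0.09 in dcr1-SHSS (adjusted p = 0.00218). The checkpoint kinase gene cds1, whose product acts on Nrm1 and Yox1 when replication is blocked, rose by 0.34 ± 0.06 (adjusted p = 0.00178). After quantile normalization 5 checkpoint genes fell in dcr1ΔC33, and after median centring 3. In dcr1Δ none passed, and limma's unadjusted p was under 0.05 for 1, chk1. For comparison with another phase of the cycle, of 9 mitosis genes 1 rose in dcr1Δ (spo12, 0.46 ± 0.08), 1 fell in dcr1ΔC33 (fkh2, -0.15 ± 0.03) and 4 fell in dcr1-SHSS, among them slp1 (-0.23 ± 0.06). The call of spo12 was lost without dcr1Δ array 3 and when only these 2 strains were fitted (up to 0.107). In dcr1Δ limma's unadjusted p was under 0.05 for 3 of the 9 mitosis genes, slp1, spo12 and sid2, all higher. With the replicate block 2 of the 9 rose there. Of 7 cell separation genes 1 fell in dcr1ΔC33 (adg3, a call lost without certain single arrays, adjusted p up to 0.0599) and in dcr1-SHSS 3 fell, led by agn1 (-0.33 ± 0.06). After median centring 2 fell in dcr1-SHSS.

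Over the 12 arrays, the features whose level followed mik1 most closely were tom40 (Pearson r = 0.963), rpl3001 (0.962), tos4 (0.962), rpl702 (0.962) and rfc5 (0.96). This is a description over arrays that share strains and scale. Among the other 9 genes the r with mik1 was 0.88 for res1, 0.87 for cig2 and 0.83 for nrm1, and -0.19 for res2. For res1, 190 features of the table were more alike to mik1, so a high r with mik1 was common on these arrays.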

How the data were processed

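The deposited table held 1 log2 level per annotated feature and array, summarised from tiling probes by the authors. Per the submitters' processing notes R 2.10.0 and affy were used. Which background correction, normalization, probe summary and genome build they used is not stated in the sources at hand. How the levels were scaled and centred is therefore known only from the levels themselves. Per the labels' protocols the target was double-stranded, so strands are not told apart. The number of arrays, 3 per strain, limits the precision.

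A model of 4 strain means was fitted to all 5483 features over 12 arrays with limma 3.58.1 in R 4.3.3 (lmFit and eBayes, 8 residual and 2.44 prior degrees of freedom), and p-values of each of 6 comparisons were adjusted by the Benjamini-Hochberg method, with a threshold of 0.05. The code of the fit was checked on simulated data with independent noise and changes in dcr1ΔC33 only. The arrays here differ from that setting, so the check does not give the error rate of these calls. Symbols came from the ASM294v3 gene table, which matched 5348 features. To see whether the labels' replicate numbers pair the arrays, each array's deviations from its strain mean were correlated with those of the array of the same number. The correlation was over 0.1 for every pair, from 0.131 to 0.437, in 4 of the comparisons. In dcr1-SHSS against wild type and against dcr1ΔC33 it was 0.093 and 0.021 for array 1, and over 0.1 for arrays 2 (0.284 and 0.351) and 3 (0.266 and 0.139). Not every pair was over 0.1 there. The limit of 0.1 was set by choice, and these correlations do not show whether same-numbered arrays were handled together. The block was fitted over all 12 arrays, so its calls in each comparison rest on the arrays of all 4 strains.

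Alternatives were median centring, quantile normalization, a fit without the 20% dimmest features, the compared strains alone, an intensity trend with robust moderation, the replicate number as a block and leaving out each array. The 10 genes and the lists were chosen with earlier results of these data known. Genes named were the 10, dcr1, measured features that overlap them, up to 3 genes per list and comparison with the largest change past the threshold, otherwise the gene with the smallest p, and the 5 features most alike to the gene with the widest range of strain means. Names outside this rule are counts' members or neighbours, named after their values were seen. Promoter and protein sequences were not analysed here. A result for the cell separation list in dcr1Δ is not reported here.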

Additional observations from a re-analysis of the deposited data

How the results depend on the processing

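The falls of mik1 and cig2 in dcr1ΔC33 and dcr1-SHSS, of nrm1 in dcr1ΔC33, of res1 in dcr1-SHSS and the rise of cdt1 in dcr1Δ passed under every alternative run. Of the values of the 10 genes over all comparisons and alternatives, 45 lost and 21 gained the threshold and 21 changed sign. No value that changed sign was past the threshold under either setting, and the cause of the changes below was not tested. In the fit to the compared strains alone, which has fewer samples, limma called 73 of all features in dcr1Δ against wild type, 272 in dcr1ΔC33 and 908 in dcr1-SHSS against dcr1Δ, 1 in dcr1-SHSS against dcr1ΔC33, and 3 of the 10 genes in dcr1-SHSS against wild type, beside 172, 433, 1456, 8 and 5. With the replicate block it called 295 of all features and 2 of the 10 genes in dcr1Δ against wild type, and 847 and 7 in dcr1ΔC33 against dcr1Δ. Beyond the calls named above, the block changed no call of the 10 genes. In dcr1-SHSS against dcr1ΔC33, 2 features passed after quantile normalization, 0 without the dimmest features and 4 with an intensity trend. Median centring left 3 of the 10 genes in dcr1-SHSS against wild type. Leaving out 1 array gave, in the order dcr1Δ, dcr1ΔC33 and dcr1-SHSS against wild type, dcr1ΔC33 and dcr1-SHSS against dcr1Δ, and dcr1-SHSS against dcr1ΔC33, 82 to 168, 1178 to 1483, 1729 to 2001, 120 to 434, 750 to 1409 and 1 to 7 of all features, and 1 to 2, 3 to 4, 3 to 5, 1 to 3, 5 to 7 and 0 to 0 of the 10 genes.

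Median centring turned the sign of nrm1 in dcr1Δ against wild type (-0.007), of res2 (0.022) and suc22 (0.021) in dcr1-SHSS against dcr1Δ, and of cdc22 (0.008) and suc22 (0.009) in dcr1-SHSS against dcr1ΔC33. Quantile normalization turned yox1 in dcr1ΔC33 against wild type (-0.009) and res2 in dcr1-SHSS against dcr1Δ (0.059) and against dcr1ΔC33 (0.013). Leaving out 1 array spanned 0 for nrm1 (-0.011 to 0.015), pmc1 (-0.019 to 0.193), ssb1 (-0.009 to 0.093), tad1 (-0.122 to 0.004) and rrn11 (-0.064 to 0.028) in dcr1Δ against wild type, for ssb1 in dcr1ΔC33 (-0.000 to 0.125) and dcr1-SHSS (-0.003 to 0.094) and for cdt1 in dcr1-SHSS (-0.037 to 0.080). It also did for res2 in dcr1ΔC33 against dcr1Δ (-0.027 to 0.112), for res2 (-0.065 to 0.063) and suc22 (-0.013 to 0.005) in dcr1-SHSS against dcr1Δ, and for cdc22 (-0.052 to 0.033), cdc18 (-0.002 to 0.060) and res2 (-0.092 to 0.023) in dcr1-SHSS against dcr1ΔC33. The dim signal of yox1 limits its values, and the filter on dim features gives none for it.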
